A study of Mus musculus with 18 samples.

Results

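The 9 genes described here are members of the Hedgehog signaling pathway: *Shh*, *Ptch1*, *Boc*, *Hhip*, *Smo*, *Gli1*, *Gli2*, *Gli3* and *Foxa2*. They were taken by gene symbol from an expression table of 34244 named genes, and all 9 were found in it. All 9 also passed the filter on low values, as did 19397 genes of the table. The question was whether the higher level of *Shh* in embryos labelled Dnmt3b-/- was accompanied by higher levels of the genes that Hedgehog signaling is known to switch on. *Shh* was already named by the study as a gene that is higher in these embryos, so its direction is not independent evidence.

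Sonic hedgehog, the product of *Shh*, is a secreted morphogen made by the notochord, the floor plate of the neural tube, the posterior margin of the limb bud and the lining of the gut and airways. It binds the receptor Patched at the surface of neighboring cells, which releases the membrane protein Smoothened from inhibition in the primary cilium and turns the Gli transcription factors from repressors into activators. *Gli1*, *Ptch1* and *Hhip* are transcribed in response in many tissues, and their transcripts are therefore widely used as a readout of pathway activity.

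RNA was measured in whole E11.5 mouse embryos of the FVB strain, with 1 library from each of 3 Dnmt3b+/+, 3 Dnmt3b-/- and 3 Dnmt3bCI/CI embryos. Dnmt3b is a DNA methyltransferase that establishes methylation in the early embryo. The Dnmt3b-/- embryos are homozygous for a null allele, and Dnmt3bCI/CI embryos are homozygous for a knock-in allele made by CRISPR/Cas9 whose protein carries amino acid substitutions in the catalytic site and is catalytically inactive. Embryos came from natural matings of Dnmt3b+/- and Dnmt3b+/CI mice and only embryos with a heartbeat were used, so Dnmt3b-/- embryos that had died earlier are not represented. The labels call the embryos of a genotype independent and give no litter, and the p-values measure the spread between these embryos.

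Values are FPKM, that is, fragments per kilobase of gene scaled to the mapped fragments of the library, a scale on which levels of different genes can be compared. The 9 libraries held between 38451730 and 49808776 reads, as worked back from the table. *Dnmt3b* itself stood at 2.25, 1.62 and 2.04 FPKM in Dnmt3b+/+ embryos and at 2.45, 3.12 and 3.33 FPKM under the label Dnmt3b-/-, so its transcript gives no check of that label, and the group is named by its label throughout. Dnmt3b+/+ embryo 2 stood apart from its group. It had 0.103 FPKM of the liver gene *Alb*, where the other Dnmt3b+/+ embryos had 85.7 and 43.7 FPKM, and 8 neuronal genes summed to 443 FPKM against 231 and 293 FPKM. Dnmt3bCI/CI embryo 2 had the lowest level of the ventral forebrain factor *Nkx2-1*, at 0.699 FPKM against 3.39 and 3.46 FPKM. *En2*, a gene of the midbrain and anterior hindbrain that was looked at after its values were seen, ranged from 0.0316 to 7.22 FPKM among the Dnmt3b+/+ embryos. Results are therefore also given without Dnmt3b+/+ embryo 2 and Dnmt3bCI/CI embryo 2.

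In Dnmt3b+/+ embryos, *Smo* was the most abundant of the 9 transcripts with 32.4 ± 2.73 FPKM (SD, n = 3), followed by *Boc* with 13.1 ± 0.713 FPKM. *Gli1*, *Gli2*, *Gli3* and *Ptch1* formed a middle group with means of 9.27, 8.49, 6.97 and 6.18 FPKM. Within that group the embryos of each gene overlapped with those of the next in the order. Each Dnmt3b+/+ embryo by itself, however, had these genes in the same order, and no test was made between genes. The ligand was much lower than its receptor and transducer, with 1.95 ± 0.279 FPKM of *Shh*. The lowest levels were those of *Foxa2* and *Hhip* with 1.0 and 0.555 FPKM. Their embryos overlapped too, with *Foxa2* above *Hhip* in each embryo. These levels are averages over whole embryos. In such bulk samples, fewer cells of a type and less RNA per cell cannot be told apart.

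*Shh* (ENSMUSG00000002633, chr5:28456815-28467256, minus strand, GRCm38) was the member that changed. It stood at 1.97, 1.66 and 2.22 FPKM in Dnmt3b+/+ embryos, at 4.29, 5.14 and 4.22 FPKM in embryos labelled Dnmt3b-/- and at 1.56, 2.47 and 1.77 FPKM in Dnmt3bCI/CI embryos. Each embryo labelled Dnmt3b-/- was above each of the other 6, while Dnmt3b+/+ and Dnmt3bCI/CI embryos overlapped. These levels correspond to 236 to 250 reads in Dnmt3b+/+, 487 to 622 reads in the libraries labelled Dnmt3b-/- and 194 to 304 reads in Dnmt3bCI/CI.

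The mean level of *Shh* was 2.33-fold that of Dnmt3b+/+ in embryos labelled Dnmt3b-/-. On the log2(FPKM + 0.1) scale the difference was 1.18 with a standard error of 0.17 (95% confidence interval 0.79 to 1.57, adjusted p = 0.0029, limma with Benjamini-Hochberg adjustment over all genes tested). Against Dnmt3bCI/CI it was 1.21 (0.82 to 1.6, adjusted p = 0.00226). Dnmt3bCI/CI embryos differed from Dnmt3b+/+ by -0.03 (-0.42 to 0.36, adjusted p = 0.989), an interval that reaches from 0.749-fold to 1.29-fold. Without Dnmt3b+/+ embryo 2 and Dnmt3bCI/CI embryo 2, *Shh* also passed the test between embryos labelled Dnmt3b-/- and Dnmt3b+/+.

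**Figure D1:**
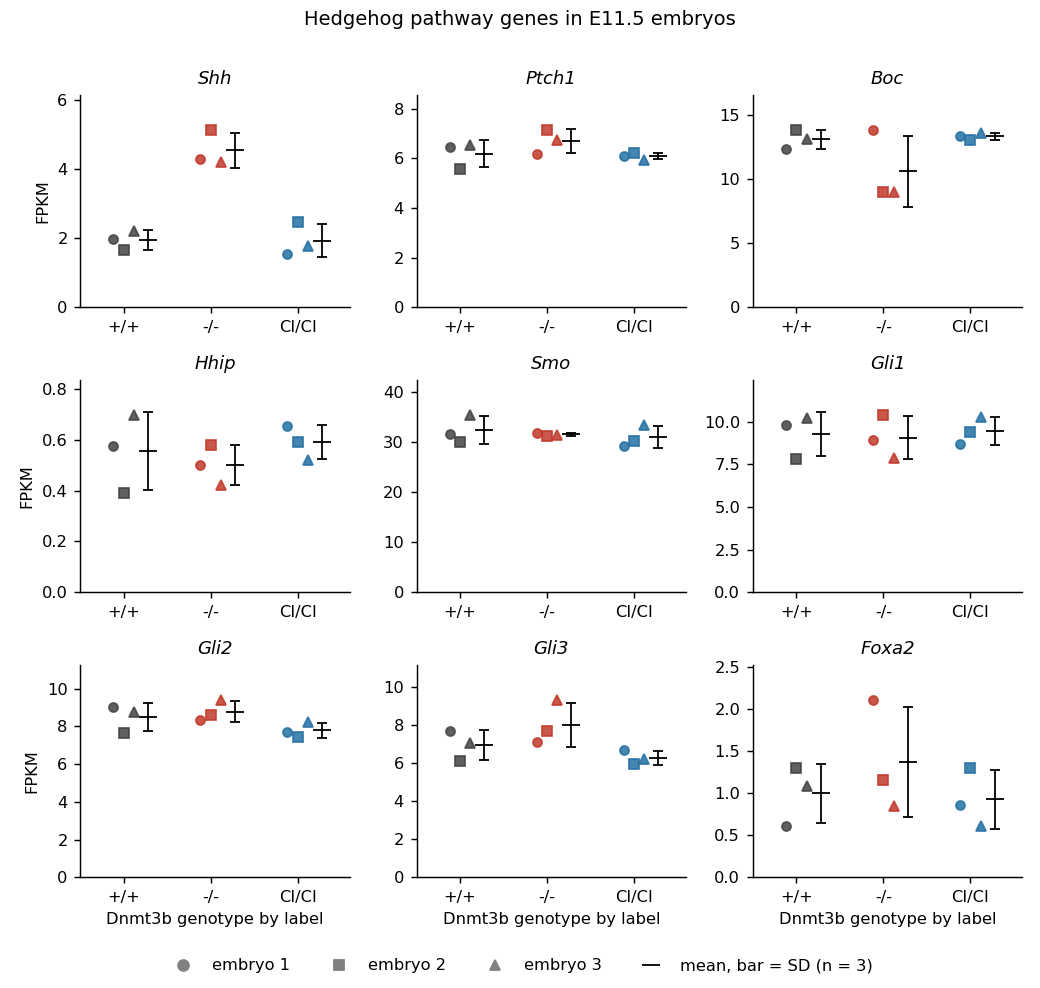
Levels of the 9 Hedgehog pathway genes in FPKM (y axis, from 0) in each of 9 embryos by the genotype of the label (x axis). Symbols are embryos 1 to 3 of a genotype and the black marks are the mean with the SD of 3 embryos. *Shh* lies between 4.22 and 5.14 FPKM in embryos labelled Dnmt3b-/- and between 1.56 and 2.47 FPKM in the other 6, whereas the embryos of Dnmt3b+/+ and of the label Dnmt3b-/- overlap for the other 8 genes.

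Of the 9 members, 1 was higher and none was lower in embryos labelled Dnmt3b-/- than in Dnmt3b+/+ at an adjusted p under 0.05, with the same count at an unadjusted p under 0.05, which 40.0% of all genes had. Over all genes tested, 25.8% passed, 9.41% as higher and 16.4% as lower, and 4.45% passed with a change of at least 2-fold, 1.07% as higher, as *Shh* did. The median log2 difference was 0.05 over the 9 members and -0.07 over all genes. Only *Shh* was without overlap between the embryos of the compared genotypes, a property that 38.9% of all genes had, 15.1% as higher. When each embryo was left out in turn, *Shh* stayed the only member that passed as higher.

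The receptor gene *Ptch1* (ENSMUSG00000021466, chr13:63508328-63573598, minus strand) encodes the protein that binds Shh and is at the same time a target of the pathway. A 9-base match to the Gli consensus GACCACCCA was found in 1 place within 1000 bases before its RefSeq start (GRCm38). It is printed to show the letters that were searched for in their context, with the match in capitals, on the strand of the gene, at chr13:63566425-63566453.
Ptch1: gttgcctaccTGGGTGGTCtctctacttt
The match reads on the strand opposite to the gene, begins 708 bases before that start and lies in an intron of 2 longer *Ptch1* transcripts of GENCODE M21, in no exon. The same search on both strands found a match before 0.825% of 32851 RefSeq starts and before none of the starts of *Gli2*, *Gli3*, *Smo*, *Hhip* and *Foxa2*. *Shh*, *Gli1* and *Boc* were not searched. A match is a run of letters and no measure of binding.

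*Ptch1* stood at 6.47, 5.56 and 6.52 FPKM in Dnmt3b+/+ embryos, at 6.17, 7.14 and 6.74 FPKM in embryos labelled Dnmt3b-/- and at 6.09, 6.2 and 5.95 FPKM in Dnmt3bCI/CI embryos. The groups overlapped. The log2 difference between embryos labelled Dnmt3b-/- and Dnmt3b+/+ was 0.11 (-0.07 to 0.29, adjusted p = 0.329, limma), which limits the change to between 0.953-fold and 1.23-fold at 95% confidence.

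*Gli1* (ENSMUSG00000025407, chr10:127329882-127341974, minus strand), a Gli factor that acts as an activator and whose transcription depends on pathway activity, stood at 9.82, 7.83 and 10.2 FPKM in Dnmt3b+/+ embryos and at 8.92, 10.4 and 7.87 FPKM in embryos labelled Dnmt3b-/-. Dnmt3bCI/CI embryos had 8.68, 9.4 and 10.3 FPKM. The ranges were nearly the same in the 3 genotypes. The log2 difference between embryos labelled Dnmt3b-/- and Dnmt3b+/+ was -0.03 (-0.33 to 0.26, adjusted p = 0.865), or 0.798-fold to 1.2-fold, and it rested on 1593 to 2204 reads per library.

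*Hhip* (ENSMUSG00000064325, chr8:79965851-80058006, minus strand), which encodes a membrane protein that binds and sequesters Hedgehog ligands, had 0.577, 0.392 and 0.697 FPKM in Dnmt3b+/+ embryos and 0.5, 0.578 and 0.421 FPKM in embryos labelled Dnmt3b-/-. In Dnmt3bCI/CI embryos it had 0.655, 0.591 and 0.522 FPKM. All embryos labelled Dnmt3b-/- lay within the range of Dnmt3b+/+. The log2 difference was -0.11 (-0.54 to 0.33, adjusted p = 0.707), with an interval from 0.687-fold to 1.25-fold. *Hhip* turned to 0.11 under quantile normalization and did not pass there either.

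Of the 3 members transcribed in response to Hedgehog signaling, 0 passed with limma and 0 had an unadjusted p under 0.05. Since 25.8% of all genes passed and 40.0% had such a p, a count over so few genes is no result about them, and their intervals are given instead. The intervals of *Ptch1*, *Gli1* and *Hhip* all ended below the lower end of the interval of *Shh*, which was 1.73-fold. The difference between the change of *Shh* and that of its targets was not tested.

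**Figure D2:**
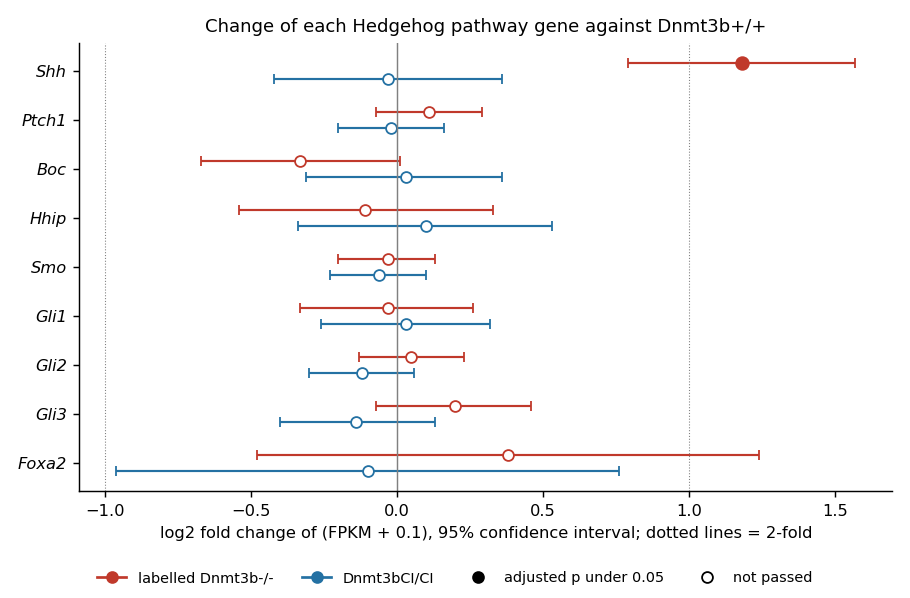
Log2 fold changes of FPKM + 0.1 against Dnmt3b+/+ (x axis) for each of the 9 genes (y axis), in red for embryos labelled Dnmt3b-/- and in blue for Dnmt3bCI/CI, with 95% confidence intervals from limma over 3 embryos a genotype. Filled points passed at an adjusted p under 0.05 and open points did not, and *Shh* in embryos labelled Dnmt3b-/-, at 1.18, is the filled one.

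Ratios within an embryo are free of differences in depth between libraries and show the same values in another way. *Gli1* had 4.99, 4.7 and 4.58 times the FPKM of *Shh* in Dnmt3b+/+ embryos, 2.08, 2.02 and 1.86 times in embryos labelled Dnmt3b-/- and 5.55, 3.81 and 5.79 times in Dnmt3bCI/CI embryos. The embryos labelled Dnmt3b-/- lay below the other 6. The ratio of *Ptch1* to *Shh* was 3.19 ± 0.22 in Dnmt3b+/+, 1.47 ± 0.108 in embryos labelled Dnmt3b-/- and 3.25 ± 0.696 in Dnmt3bCI/CI (SD, n = 3). That of *Hhip* to *Shh* was 0.281 ± 0.0407, 0.11 ± 0.00873 and 0.317 ± 0.0919. No test was made on ratios, since both genes of each are members and *Shh* was named beforehand as higher.

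**Figure D3:**
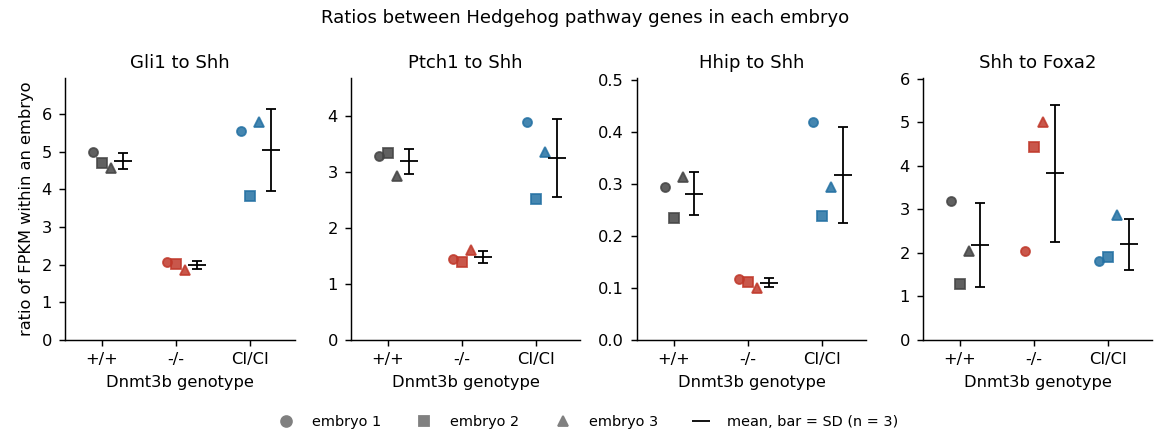
Ratio of FPKM between 2 Hedgehog genes within each embryo (y axis, from 0, no unit) by the genotype of the label (x axis), with the mean and SD of 3 embryos in black. The ratio of *Gli1* to *Shh* is between 1.86 and 2.08 in embryos labelled Dnmt3b-/- and between 3.81 and 5.79 in the other 6, while the ratio of *Shh* to *Foxa2* overlaps between genotypes.

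Among the genes that receive and relay the signal, *Boc* (ENSMUSG00000022687, chr16:44485049-44558897, minus strand) encodes a co-receptor that presents Shh to Patched. It stood at 12.3, 13.8 and 13.1 FPKM in Dnmt3b+/+ embryos and at 13.8, 8.98 and 9.01 FPKM in embryos labelled Dnmt3b-/-, against 13.3, 13.0 and 13.6 FPKM in Dnmt3bCI/CI. Embryo 1 labelled Dnmt3b-/- was level with the other genotypes and the other two were lower. The same embryo stood apart in the sum of 8 neuronal genes, with 409 FPKM against 213 and 182 FPKM in the other two of its label, and the part of this in the level of *Boc* was not tested. With all embryos the log2 difference from Dnmt3b+/+ was -0.33 (-0.67 to 0.01, adjusted p = 0.13), and without embryo 1 labelled Dnmt3b-/- it was -0.53 (adjusted p = 0.000779). *Boc* therefore passed as lower only when that embryo was left out, and the same held against Dnmt3bCI/CI, with -0.36 (adjusted p = 0.102) and -0.56 (adjusted p = 0.00053).

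*Smo* (ENSMUSG00000001761, chr6:29735503-29761365, plus strand), the transducer of the signal, had 31.7, 30.1 and 35.4 FPKM in Dnmt3b+/+, 31.8, 31.3 and 31.5 FPKM in embryos labelled Dnmt3b-/- and 29.3, 30.2 and 33.4 FPKM in Dnmt3bCI/CI. All 3 genotypes overlapped, with a log2 difference of -0.03 between the label Dnmt3b-/- and Dnmt3b+/+ (-0.2 to 0.13, adjusted p = 0.748).

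*Gli2* (ENSMUSG00000048402, chr1:118834132-119053619, minus strand), the main activator among the Gli factors before *Gli1* is induced, had 9.04, 7.65 and 8.78 FPKM in Dnmt3b+/+, 8.35, 8.59 and 9.4 FPKM in embryos labelled Dnmt3b-/- and 7.72, 7.45 and 8.23 FPKM in Dnmt3bCI/CI. Its log2 difference between embryos labelled Dnmt3b-/- and Dnmt3b+/+ was 0.05 (-0.13 to 0.23, adjusted p = 0.676). Their embryos overlapped, whereas those labelled Dnmt3b-/- were all above Dnmt3bCI/CI, by 0.17 (adjusted p = 0.142).

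*Gli3* (ENSMUSG00000021318, chr13:15463235-15730026, plus strand), whose product is the main repressor when no ligand is present, had 7.73, 6.12 and 7.07 FPKM in Dnmt3b+/+, 7.1, 7.68 and 9.34 FPKM in embryos labelled Dnmt3b-/- and 6.7, 5.98 and 6.22 FPKM in Dnmt3bCI/CI. Against Dnmt3b+/+ the log2 difference of embryos labelled Dnmt3b-/- was 0.2 (-0.07 to 0.46, adjusted p = 0.234). Against Dnmt3bCI/CI, where the embryos did not overlap, it was 0.34 (0.07 to 0.6, adjusted p = 0.0591). That comparison passed when Dnmt3b+/+ embryo 2 (0.34, adjusted p = 0.0414) or embryo 1 labelled Dnmt3b-/- (0.42, adjusted p = 0.025) was left out. The ratio of *Gli1* to *Gli3*, an activator target over a repressor, was 1.33 ± 0.0957 in Dnmt3b+/+, 1.15 ± 0.271 in embryos labelled Dnmt3b-/- and 1.51 ± 0.186 in Dnmt3bCI/CI (SD, n = 3), with overlap between embryos of Dnmt3b+/+ and of the label Dnmt3b-/-.

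*Foxa2* (ENSMUSG00000037025, chr2:148042877-148046969, minus strand) encodes a transcription factor of notochord, floor plate and endoderm that acts upstream of *Shh* in these tissues and is induced by it in the floor plate. It stood at 0.614, 1.3 and 1.09 FPKM in Dnmt3b+/+, at 2.11, 1.16 and 0.843 FPKM in embryos labelled Dnmt3b-/- and at 0.865, 1.3 and 0.615 FPKM in Dnmt3bCI/CI. Embryo 1 labelled Dnmt3b-/- was the highest of the 9 and the other two lay within the range of Dnmt3b+/+. The log2 difference was 0.38 with a wide interval (-0.48 to 1.24, adjusted p = 0.491), which includes no change as well as a change as large as that of *Shh*. It was measured on 56 to 199 reads per library.

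In the comparison of Dnmt3bCI/CI with Dnmt3b+/+, 0 of the 9 members passed with limma and 0 had an unadjusted p under 0.05. Over all genes, 0.144% passed and 5.25% had an unadjusted p under 0.05. The median log2 difference of the members was -0.03 and that of all genes 0.02. In the comparison of embryos labelled Dnmt3b-/- with Dnmt3bCI/CI, 1 member passed as higher, *Shh*, and 3 had no overlap and were higher, *Shh*, *Gli2* and *Gli3*. The background there was 27.9% passed in either direction, 9.7% as higher, and 16.7% higher without overlap. These comparisons share embryos with the main one and do not bear on it independently.

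The other Hedgehog genes of a list drawn up by function (ligands, their release, reception, intracellular relay and the cilium) numbered 38 in the table. Against Dnmt3b+/+, 2 of the 38 rose and 6 fell in embryos labelled Dnmt3b-/-, and 30 did not pass, with a median log2 difference of -0.09. The share that passed was 21.1%, beside 25.8% of all genes. In Dnmt3bCI/CI 0 of the 38 passed with limma and 3 had an unadjusted p under 0.05. The most abundant of them in Dnmt3b+/+ were the glypican gene *Gpc3* with 96.5 FPKM and the co-receptor gene *Gas1* with 74.5 FPKM. Embryos labelled Dnmt3b-/- had 99.9 FPKM of *Gpc3* (0.06, adjusted p = 0.72) and 57.0 FPKM of *Gas1* (-0.4, adjusted p = 0.054), and neither passed. Without embryo 1 of that label *Gas1* passed as lower (-0.56, adjusted p = 0.00259), as 23.6% of all genes did.

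Among the genes of this list that passed, the largest differences were decreases. *Cdon*, which encodes a co-receptor related to Boc, had 12.2, 11.6 and 11.7 FPKM in Dnmt3b+/+ and 7.59, 6.31 and 7.49 FPKM in embryos labelled Dnmt3b-/-, without overlap (-0.73, adjusted p = 0.00079, limma). *Ihh*, the Hedgehog ligand of growing cartilage and gut epithelium, had 0.713, 0.468 and 0.803 FPKM against 0.247, 0.262 and 0.105 FPKM (-1.34, adjusted p = 0.00748). The direction of *Ihh* was thus opposite to that of *Shh*. *Dhh*, the remaining ligand, had 0.433 FPKM against 0.321 FPKM and did not pass (adjusted p = 0.359).

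*Scube1*, which encodes a secreted protein related to the one that helps release Hedgehog ligands from the cell, rose from 7.45, 7.57 and 8.39 FPKM to 9.52, 11.8 and 13.1 FPKM (0.54, adjusted p = 0.0111). Its call was lost when Dnmt3b+/+ embryo 2 and Dnmt3bCI/CI embryo 2 were both left out (0.52, adjusted p = 0.0503). *Lrp2*, an endocytic receptor for Shh in the forebrain, also passed as higher, with 0.661 against 0.413 FPKM (0.57, adjusted p = 0.0321), but it no longer passed without Dnmt3b+/+ embryo 1 or 3, embryo 2 or 3 labelled Dnmt3b-/- or Dnmt3bCI/CI embryo 2 (adjusted p 0.0511 to 0.103). The 4 remaining genes that passed were lower and changed little. They were *Disp1*, the transporter that exports the ligand (-0.22, adjusted p = 0.0214), *Gpr161*, an inhibitor of the pathway in the cilium (-0.37, adjusted p = 0.0141), *Kif3a*, a motor of transport into the cilium (-0.33, adjusted p = 0.0151), and *Arrb1*, an arrestin (-0.49, adjusted p = 0.0456).

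These 4 calls depended on single embryos. Without embryo 2 labelled Dnmt3b-/-, *Disp1* (adjusted p = 0.063), *Gpr161* (0.055), *Kif3a* (0.0593) and *Arrb1* (0.0982) did not pass, *Disp1* was also lost without Dnmt3b+/+ embryo 1 (0.0588), and *Arrb1* was lost in 7 of the 9 fits that left out an embryo, all but those without Dnmt3b+/+ embryo 2 or embryo 1 labelled Dnmt3b-/- (adjusted p 0.0679 to 0.14). Without embryo 2 labelled Dnmt3b-/- the list held 1 gene that was higher and 2 that were lower, and without embryo 1 of that label it held 2 and 12. Over all genes, 12.4% passed without embryo 2 and 35.6% without embryo 1. Without Dnmt3b+/+ embryo 2 and Dnmt3bCI/CI embryo 2 it held 0 and 3, where 13.4% of all genes passed.

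Genes of the tissues that Shh patterns were counted in the same way. For each list below, the background in this comparison is the 25.8% of all genes that passed, 9.41% as higher and 16.4% as lower, and the 40.0% with an unadjusted p under 0.05. Without embryo 1 labelled Dnmt3b-/- the background was 35.6%, 12.1% as higher and 23.6% as lower, and without Dnmt3b+/+ embryo 2 it was 18.1%, 6.04% as higher and 12.0% as lower. No test set a list against this background. In the floor plate list 0 of 10 genes passed between embryos labelled Dnmt3b-/- and Dnmt3b+/+ with limma and 2 had an unadjusted p under 0.05. Its most abundant gene, *Ntn1*, which encodes a guidance cue for commissural axons, had 13.1 FPKM against 14.2 FPKM. The summed level of the list was 33.2 to 43.9 FPKM in embryos labelled Dnmt3b-/- and 37.5 to 50.9 FPKM in Dnmt3b+/+, and the 2 ranges overlapped. *Ferd3l*, a bHLH factor of the list, passed as higher without Dnmt3b+/+ embryo 2 (1.21, adjusted p = 0.0493) and without that embryo and Dnmt3bCI/CI embryo 2 (1.21, adjusted p = 0.0382). *Slit2*, an axon guidance gene, passed as lower without embryo 1 labelled Dnmt3b-/- (-0.48, adjusted p = 0.00284). Of 8 genes of ventral neurons and 5 of the ventral forebrain, 0 passed, and 0 of either had an unadjusted p under 0.05. Without embryo 1 labelled Dnmt3b-/-, *Isl1*, of motor neurons, passed as lower (-0.47, adjusted p = 0.0212).

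Of 6 transcription factors of ventral neural progenitors, 2 were higher in embryos labelled Dnmt3b-/- (background 9.41%), 2 had an unadjusted p under 0.05, and the median log2 difference of the list was 0.24. *Nkx2-9*, a factor of the progenitors next to the floor plate whose transcription depends on Shh, had 0.124, 0.111 and 0.0807 FPKM in Dnmt3b+/+ and 0.377, 0.298 and 0.41 FPKM in embryos labelled Dnmt3b-/-, without overlap. The difference was 1.17 (0.78 to 1.55, adjusted p = 0.00295) and the ratio of means 3.43. It rested on 4 to 7 reads against 16 to 21 reads per library, and the pseudocount of 0.1 FPKM, as large as the Dnmt3b+/+ level, makes the log2 difference smaller than the ratio of means. Dnmt3bCI/CI embryos had 0.0352, 0.0164 and 0.0617 FPKM, from 2, 0 and 3 reads. Outside the label Dnmt3b-/-, only Dnmt3b+/+ embryos 1 and 2 reached the 0.1 FPKM of the filter, which asks for 3 embryos. *Nkx2-9* was therefore tested only through the group in which it is high, and it is 1 of the 2 genes of this list that passed.

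*Nkx6-2*, a broader ventral factor, had 1.76 FPKM in Dnmt3b+/+ and 3.34 FPKM in embryos labelled Dnmt3b-/- (0.89, adjusted p = 0.0436), and this call was lost in 7 of the 9 fits that left out an embryo, all but those without Dnmt3b+/+ embryo 2 or embryo 3 labelled Dnmt3b-/- (adjusted p 0.0598 to 0.137). *Nkx2-2*, also next to the floor plate, had 0.818, 1.28 and 1.01 FPKM against 1.47, 0.941 and 1.38 FPKM and did not pass (0.26, adjusted p = 0.366). *Olig2*, of motor neuron progenitors, had 2.49 against 3.07 FPKM (0.15, adjusted p = 0.855). Among 8 genes of dorsal and intermediate progenitors, many of which Shh is known to repress, 1 passed and it was higher, and 3 had an unadjusted p under 0.05. *Msx1*, a dorsal factor that limb and face also express, had 13.9 against 25.3 FPKM (0.85, adjusted p = 0.0281), and it did not pass without Dnmt3b+/+ embryo 2 or 3 or embryo 2 or 3 labelled Dnmt3b-/- (adjusted p 0.0759 to 0.094). Without Dnmt3b+/+ embryo 2, 3 other genes of this list passed as higher, the progenitor factors *Dbx1* (1.43, adjusted p = 0.014), *Dbx2* (0.58, adjusted p = 0.0415) and *Irx3* (0.58, adjusted p = 0.025). Without that embryo and Dnmt3bCI/CI embryo 2, *Dbx1* and *Irx3* did.

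The neural lists were also compared with Dnmt3bCI/CI. *Nkx2-2* had 0.364, 0.434 and 0.452 FPKM in Dnmt3bCI/CI, below each embryo of the other genotypes. The log2 difference of embryos labelled Dnmt3b-/- from Dnmt3bCI/CI was 1.38 (0.93 to 1.83, adjusted p = 0.00236, limma), while that of Dnmt3bCI/CI from Dnmt3b+/+ was -1.12 and did not pass (-1.57 to -0.67, adjusted p = 0.179). *Nkx2-9* was also higher in embryos labelled Dnmt3b-/- than in Dnmt3bCI/CI (adjusted p = 0.000526). The Dnmt3bCI/CI libraries held 2, 0 and 3 reads of it, so that no fold is given. *Nkx6-2* was higher by 1.05 (adjusted p = 0.023), but not without embryo 2 labelled Dnmt3b-/- or Dnmt3bCI/CI embryo 1 or 3 (adjusted p 0.0725 to 0.0791). Thus 3 of the 6 ventral progenitor genes were higher against Dnmt3bCI/CI, where 9.7% of all genes were. Of the dorsal and intermediate list 3 of 8 were higher there too, *Dbx1* (2.08, adjusted p = 0.00553), *Irx3* (0.68, adjusted p = 0.0212, not without embryo 2 labelled Dnmt3b-/- or Dnmt3bCI/CI embryo 1 or 2) and *Msx1* (1.26, adjusted p = 0.0056). In the floor plate list 1 of 10 was higher, *Lmx1a* (1.33, adjusted p = 0.00197), which the roof plate also expresses, and the list median was -0.25. In the ventral forebrain list 1 of 5 was higher, *Nkx2-4* (adjusted p = 0.0134). Dnmt3bCI/CI libraries held 0, 0 and 2 reads of *Nkx2-4*, so that no fold is given. Of 8 ventral neuron genes 0 passed, with a median of -0.39. Like *Nkx2-2*, both *Lmx1a* (-0.96, adjusted p = 0.233) and *Dbx1* (-1.08, adjusted p = 0.864) were at lower values in each Dnmt3bCI/CI embryo than in each Dnmt3b+/+ embryo without passing, and so was *Nkx2-4* (adjusted p = 0.59). Against Dnmt3b+/+, embryos labelled Dnmt3b-/- differed by 0.37 for *Lmx1a* (adjusted p = 0.16), 1.01 for *Dbx1* (adjusted p = 0.0786) and 0.28 for *Nkx2-4* (adjusted p = 0.728), and none of the 3 passed. Between Dnmt3bCI/CI and Dnmt3b+/+, 0 of the 29 genes of the floor plate and ventral lists passed with limma, beside 0.144% of all genes. An unadjusted p under 0.05 was found for 5 of the 29, a larger share than the 5.25% of all genes.

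Outside the neural tube, the posterior limb list had the highest median, 0.7, with 2 of 7 genes higher (background 9.41%) and 6 of 7 with an unadjusted p under 0.05 (background 40.0%). *Tbx2*, a T-box factor of limb margins and heart, had 20.5, 15.5 and 20.8 FPKM in Dnmt3b+/+ and 28.0, 27.8 and 26.9 FPKM in embryos labelled Dnmt3b-/- (0.55, adjusted p = 0.00865). *Hoxd12*, a gene of the posterior and distal limb bud, had 1.29 against 2.95 FPKM (1.13, adjusted p = 0.0265) and was lost without Dnmt3b+/+ embryo 2 or 3 or embryo 2 or 3 labelled Dnmt3b-/- (adjusted p 0.071 to 0.0927). *Hand2*, which acts upstream of *Shh* in the limb bud, had 8.23 against 13.5 FPKM and did not pass (0.7, adjusted p = 0.0821), but it did without embryo 1 labelled Dnmt3b-/- (0.87, adjusted p = 0.0395) or Dnmt3bCI/CI embryo 2 (0.7, adjusted p = 0.0454). Without single embryos, from 1 to 6 of these 7 genes passed, 6 of them without embryo 1 labelled Dnmt3b-/-, where 12.1% of all genes passed as higher.

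Of 6 gut mesenchyme genes, 2 had an unadjusted p under 0.05 and 1 was higher, *Barx1*, a stomach mesenchyme factor with 12.3 against 23.0 FPKM (0.94, adjusted p = 0.0194), which did not pass without embryo 2 (0.0723) or 3 (0.0529) labelled Dnmt3b-/-. *Foxf1* and *Foxf2*, known responders to Hedgehog ligands in gut mesenchyme, did not pass, with 4.81 against 5.6 FPKM (adjusted p = 0.541) and 6.87 against 8.17 FPKM (adjusted p = 0.331). Of 6 sclerotome genes, 2 had an unadjusted p under 0.05 and 1 was lower, *Sox9*, a chondrogenic factor with 26.8 against 21.6 FPKM (-0.32, adjusted p = 0.042), and that call was lost in 7 of the 9 fits without an embryo, all but those without Dnmt3b+/+ embryo 1 or embryo 1 labelled Dnmt3b-/- (adjusted p 0.0615 to 0.128). Without embryo 1 labelled Dnmt3b-/-, 3 sclerotome genes were lower, *Sox9* with *Pax1* (-1.26, adjusted p = 0.0071) and *Nkx3-2* (-1.01, adjusted p = 0.0434), and so was *Osr1* of the gut mesenchyme list (-0.65, adjusted p = 0.00466).

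Of 5 genes of proliferation that are also called Hedgehog targets, 3 were higher in embryos labelled Dnmt3b-/- (background 9.41%) and 4 had an unadjusted p under 0.05. *Ccnd1*, which encodes cyclin D1, had 29.3, 26.9 and 26.5 FPKM in Dnmt3b+/+ and 46.5, 48.0 and 52.5 FPKM in embryos labelled Dnmt3b-/- (0.83, adjusted p = 0.00018). *Mycn* rose from 10.6 to 14.3 FPKM (0.42, adjusted p = 0.0106) and *Foxm1* from 9.29 to 12.4 FPKM (0.41, adjusted p = 0.0144), the latter not without embryo 2 (0.0531) or 3 (0.0527) of that label. Without embryo 1 of that label *Ccnd2* passed as well (0.23, adjusted p = 0.043). These genes respond to many other signals, which these counts do not tell apart.

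**Figure D4:**
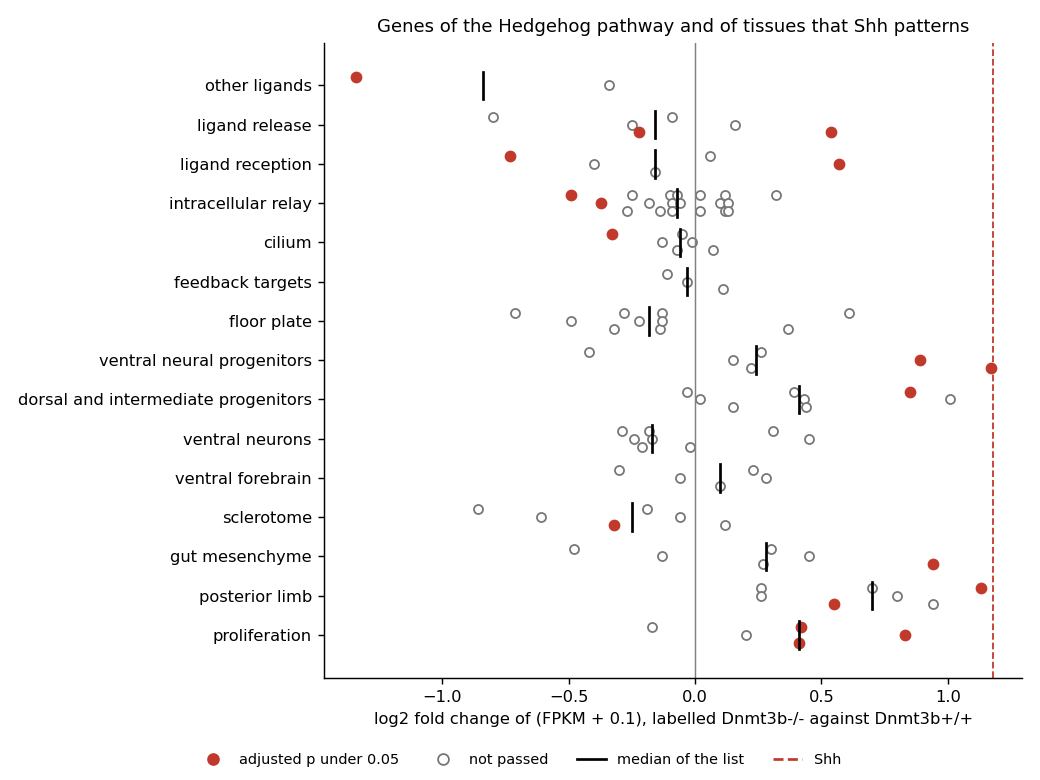
Log2 fold change of FPKM + 0.1 between embryos labelled Dnmt3b-/- and Dnmt3b+/+ (x axis) for each tested gene of 15 lists (y axis). Red points passed at an adjusted p under 0.05, open points did not, black bars are list medians and the dashed line is *Shh* at 1.18. None of the 3 feedback targets and none of the 10 floor plate genes passed, and the posterior limb list has the highest median, 0.7.

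Markers of other tissues that make *Shh*, or that differ in amount between whole embryos, moved as follows. Of 12 markers of endodermal epithelium, 0 passed with limma, 0 at an unadjusted p under 0.05, and their sum ranged from 26.1 to 42.9 FPKM in embryos labelled Dnmt3b-/- and from 15.1 to 35.3 FPKM in Dnmt3b+/+. Without Dnmt3b+/+ embryo 2, 1 of the 12 was lower, *Foxa3* (-1.03, adjusted p = 0.0373). Of the notochord list, *Noto* was at the floor of the table in every library, *T* did not pass (0.314 against 0.26 FPKM), and the BMP antagonists *Nog* (6.83 against 3.59 FPKM, adjusted p = 0.00584) and *Chrd* (1.78 against 0.828 FPKM, adjusted p = 0.0086) were lower in embryos labelled Dnmt3b-/-. *Nog* and *Chrd* are also transcribed outside the notochord.

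The sum of 7 erythroid genes was 1790 to 5710 FPKM in embryos labelled Dnmt3b-/- and 1350 to 2070 FPKM in Dnmt3b+/+. The embryonic globin genes *Hbb-bh1* (3.01, adjusted p = 0.00418) and *Hba-x* (1.79, adjusted p = 0.018) were higher, the latter not without Dnmt3b+/+ embryo 3 (0.0598) or embryo 3 labelled Dnmt3b-/- (0.054). *Hbb-y* was also higher without embryo 1 labelled Dnmt3b-/- (1.17, adjusted p = 0.0154). Of 8 hepatocyte genes 1 passed, *Ttr*, which was lower (24.3 against 5.34 FPKM, adjusted p = 0.0121) but did not follow the rest of the list, as its highest level, 35.5 FPKM, was in Dnmt3b+/+ embryo 2, and 5 were lower without Dnmt3b+/+ embryo 2, alone or with Dnmt3bCI/CI embryo 2. Of 8 neuronal genes 0 passed and 1 had an unadjusted p under 0.05, but 4 were lower without embryo 1 labelled Dnmt3b-/- (background 23.6%), *Stmn2* (-0.94, adjusted p = 0.0211), *Elavl3* (-0.76, adjusted p = 0.0343), *Snap25* (-0.92, adjusted p = 0.0141) and *Dcx* (-1.1, adjusted p = 0.00859). Of 7 trophoblast genes 2 were tested, and *Syna* was lower (0.335 against 0.177 FPKM, adjusted p = 0.04), a call lost in 8 of the 9 fits without an embryo, all but the fit without embryo 1 labelled Dnmt3b-/- (adjusted p 0.0508 to 0.104). The part of these tissue differences in the level of *Shh* was not tested.

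Around *Shh*, 21 genes of the table lie within 1 Mb on either side and 14 of them, with *Shh*, passed the filter on low values. Against Dnmt3b+/+, 3 of the 14 rose and 0 fell in embryos labelled Dnmt3b-/-, and all 3 overlap each other. Without *Shh*, which was named as higher from the start, these were 2 of 13, beside 9.41% of all genes. *Gm26894*, a noncoding RNA gene on the plus strand at chr5:28466374-28480973, had 1.26, 1.31 and 1.21 FPKM in Dnmt3b+/+ and 2.61, 2.8 and 2.46 FPKM in embryos labelled Dnmt3b-/- (1.0, adjusted p = 0.0024). *9530036O11Rik*, an antisense gene on the plus strand at chr5:28458274-28933995, had 0.177, 0.121 and 0.209 FPKM against 0.397, 0.526 and 0.357 FPKM (0.97, adjusted p = 0.00783). Both were higher in each embryo labelled Dnmt3b-/- than in each of the other 6, and in Dnmt3bCI/CI both overlapped with Dnmt3b+/+.

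Of the exonic bases of *Gm26894*, 31.8% also belong to exons of *Shh*, and of those of *9530036O11Rik* 12.2% do. Whether the counting used the strand is not given in the sources used here. Reads in these shared bases can therefore not be assigned to *Shh* or to the opposite-strand genes. The other exonic bases of the 2 genes are not shared with *Shh*, but the level over them alone was not measured. The other 11 genes did not pass. Among them *Lmbr1*, whose intron holds the limb enhancer of *Shh*, had 1.39 FPKM in Dnmt3b+/+ against 1.24 FPKM in embryos labelled Dnmt3b-/- (-0.16, adjusted p = 0.247), and *Rnf32*, next to it, had 0.267 against 0.232 FPKM (-0.13, adjusted p = 0.548).

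The genes whose levels were most like those of *Shh* over the 9 embryos, by Pearson's r of log2(FPKM + 0.1), were *9530036O11Rik* (0.987), *Spats2* (0.986), *Ier2* (0.986), *Psmd13* (0.986) and *Set* (0.984). The 9 points share the split between the embryos labelled Dnmt3b-/- and the rest. *Ier2*, an immediate early gene, had 14.5 FPKM in Dnmt3b+/+ and 29.6 FPKM in embryos labelled Dnmt3b-/-. For *Gli1* the most alike were *Gm44775* (0.947), *Olfm4* (0.911), *Gm43173* (0.907), *Snhg3* (0.906) and *Josd2* (0.904). None of the 5 is a gene of the Hedgehog lists, and none of the members was among the genes most like *Shh*.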

How the data were processed

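Total RNA of whole E11.5 embryos was sequenced as paired-end reads. The authors trimmed the reads, aligned them with STAR to mm10 (GRCm38), quantified genes in SeqMonk and deposited 1 table of FPKM values for 9 embryos, on the linear scale. The annotation release and the strandedness are not given in the sources used here. A gene without reads carries a value worth 0.9 reads. Reads were worked back from FPKM, exon length (GENCODE M21) and library total, and 95.0% of 21478 genes under 200 reads came out whole within 0.05 reads. They serve to state depth only. All per-sample columns were mapped to a sample (0 were not), and 1 row without a gene name was left out.

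The unit allows no count model, so limma 3.58.1 (R 4.3.3), with a trend of the variance on the mean, was fitted to log2(FPKM + 0.1) of the 19397 genes that reached 0.1 FPKM in 3 or more of the embryos. All 9 embryos entered 1 model with genotype as the only term. A gene passed at a Benjamini-Hochberg adjusted p under 0.05 over all genes tested. Folds on this scale understate the change of low genes. An exact permutation test of 3 against 3 embryos cannot go below p = 0.1 and was not used. The script was tested on simulated data. Embryos that carry the same number in 2 genotypes did not deviate together (mean r = -0.0866, against 0.0478 for other numbers), so embryos were not paired.

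The members and the gene lists were chosen with earlier results of these data known. Named genes are the 9 members, up to 4 genes per list that passed against Dnmt3b+/+, the most abundant genes of a list, and the 5 genes most like *Shh* and *Gli1*; other genes are named as examples that were chosen after their values were seen. Gene positions are from GENCODE M21, promoter starts from RefSeq (GRCm38.p6, 6 of 9 members matched). Bisulfite libraries and lymphoma samples were not analysed here. Of 40 other Hedgehog genes listed, 38 were matched by symbol. A further gene was left out of the list and of every count, and is not reported here. Python 3.11.15 with pandas 2.3.3 was used.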

Additional observations from a re-analysis of the deposited data

How the results depend on the processing

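*Shh* passed as higher in embryos labelled Dnmt3b-/- under all 19 alternatives, with log2 differences from 0.91 to 1.29 against Dnmt3b+/+ and from 0.93 to 1.39 against Dnmt3bCI/CI. *Ptch1*, *Hhip* and *Gli1* passed in none of them, *Hhip* not being tested with a filter of 1 FPKM. Of the members, *Boc* and *Gli3* changed their calls, as given above, and no other member did. Without single embryos, *Foxa2* ranged from 0.04 (embryo 1 labelled Dnmt3b-/- left out) to 0.65 and *Ptch1* from 0.04 (Dnmt3b+/+ embryo 2 left out) to 0.17 against Dnmt3b+/+. With 3 embryos a genotype, small changes of *Foxa2* and *Hhip* are beyond the depth and number of these libraries.

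Against Dnmt3b+/+, 5001 genes passed in embryos labelled Dnmt3b-/- and 863 of them changed at least 2-fold. With these genotypes alone 2797 passed, without Dnmt3b+/+ embryo 2 and Dnmt3bCI/CI embryo 2, an alternative chosen after seeing the data, 2566 passed, and without single embryos from 2388 (embryo 2 labelled Dnmt3b-/-) to 6859 did. At least 2-fold, 193 passed with a pseudocount of 1 FPKM, 484 with a filter of 1 FPKM, and from 587 (embryo 2) to 1400 (embryo 1 labelled Dnmt3b-/- left out) without single embryos. In Dnmt3bCI/CI 28 genes passed, 19 to 32 without single embryos, 25 of them at least 2-fold, 18 to 26 without single embryos, and 8 were at least 2-fold with a pseudocount of 1 FPKM. Without the embryos numbered 2 these counts were 12 and 12. Against Dnmt3bCI/CI, 5407 genes passed in embryos labelled Dnmt3b-/-, from 3069 to 7199 without single embryos, and 1051 at least 2-fold, 242 with a pseudocount of 1 FPKM, 597 with a filter of 1 FPKM and from 722 (embryo 3) to 1579 (embryo 1 labelled Dnmt3b-/- left out) without single embryos. With the replicate number as a block, 3029, 18 and 3595 genes passed in the 3 comparisons, and the call of no member changed. Quantile normalization moved the split of the first comparison from 1826 higher and 3175 lower to 2236 and 2044, and of the last from 1882 and 3525 to 2840 and 2281. The causes were not tested.

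Values close to 0 changed sign without passing. Under quantile normalization these were *Hhip* (0.11 against Dnmt3b+/+, 0.06 against Dnmt3bCI/CI) and *Smo* (-0.03 against Dnmt3bCI/CI), and without the embryos numbered 2 of Dnmt3b+/+ and Dnmt3bCI/CI they were *Hhip* (-0.1) and *Gli1* (-0.08) in Dnmt3bCI/CI and *Gli2* (-0.02) in embryos labelled Dnmt3b-/-. In that fit *Shh* (-0.31) and *Ptch1* (-0.11) in Dnmt3bCI/CI kept their sign. Without single embryos, the range in Dnmt3bCI/CI against Dnmt3b+/+ was -0.21 to 0.11 for *Shh*, -0.09 to 0.02 for *Ptch1*, -0.01 to 0.06 for *Boc*, -0.1 to 0.25 for *Hhip*, -0.12 to 0.0 for *Smo*, -0.08 to 0.1 for *Gli1* and -0.39 to 0.13 for *Foxa2*. In embryos labelled Dnmt3b-/- against Dnmt3b+/+ it was -0.3 to 0.05 for *Hhip*, -0.09 to 0.03 for *Smo*, -0.15 to 0.06 for *Gli1* and -0.02 to 0.1 for *Gli2*, and against Dnmt3bCI/CI it was -0.01 to 0.08 for *Smo* and -0.17 to 0.03 for *Gli1*.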
